A study of Homo sapiens with 3 samples.

Results

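The 10 genes described here encode lipogenic enzymes: ACLY, ACACA, FASN, SCD, ELOVL6, ELOVL5, FADS1, FADS2, ACSS2 and ACSL3. They were taken by gene symbol from a table of 51136 genes, and each symbol matched 1 row. The table holds 3 RNA-seq libraries of PANC-1, an established cell line from a human pancreatic carcinoma, and each library is the only one of its condition. The control library came from cells given no agent, the Rg3 library from cells given 200 μM Ginsenoside Rg3, a saponin of ginseng, and the TAM library from cells given 50 μM tamoxifen, an antiestrogen, with 24 h stated for both treatments. All cells were grown in medium with fetal calf serum, and the labels name no vehicle for the control cells. The question here is how the enzymes of fatty acid synthesis and desaturation stood in the treated libraries against the control library.

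Fatty acid synthesis starts from cytosolic acetyl-CoA, which ACLY makes from citrate and ACSS2 makes from acetate. ACACA carboxylates acetyl-CoA to malonyl-CoA, the committed step, and FASN builds palmitate from both. ELOVL6 lengthens palmitate, SCD places the first double bond, FADS2, ELOVL5 and FADS1 work in turn on polyunsaturated chains, and ACSL3 couples fatty acids to coenzyme A. Transcription of many of these genes is classically driven by SREBP-1, a membrane-bound factor that is cut free when sterols or unsaturated fatty acids are scarce.

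Reads counted on genes came to between 11300766 and 12861693 per library. KRT8 and KRT18, keratins of simple epithelia, had between 7406 and 15329 counts in each library, while KRT19 had 181 to 665 and EPCAM 8 to 26. Markers of acinar cells (PRSS1, CPA1, AMY2A) and of islet cells (INS, GCG) were at 0 in each library, and PTPRC, DCN, PECAM1, CDH5 and ADIPOQ had at most 1 count. PLIN1, of adipocytes, had 4 to 7 counts, and COL1A1, a collagen gene on the fibroblast list, had 1853, 1005 and 734 in the control, Rg3 and TAM libraries, the DCN of that list being at or near 0. Levels are given as CPM, which are counts per 1000000 reads of the TMM-scaled library size, and differences as log2 fold changes of the scaled counts with an exact 95% interval that covers counting error only. A gene was called higher with a fold over 1.5 and lower with a fold under 0.67, the fold limits of the study's methods. Each condition being a single library, none of these differences could be set against replicate spread, and in bulk RNA fewer cells expressing a gene and less RNA per cell cannot be told apart.

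With Rg3, 9 of the 10 genes were called higher and 0 lower. Of the 16487 genes compared between these libraries, 24.7% were called higher and 19.8% lower. The median log2 fold change of the 10 genes was 1.37 (2.58-fold), and that of all genes compared was 0.04. With TAM, 6 of the 10 genes were called lower and 0 higher, where 23.7% of 16079 genes were called lower and 17.5% higher. The median of the 10 genes with TAM was -0.80 (1.75-fold lower), against -0.02 for all genes compared. Both comparisons use the same control library. Each of the 10 genes passed the filter of 10 counts in all libraries, with the lowest count in ELOVL6 with TAM (84). Division by library totals moved the median of all genes by 0.15 with Rg3 and -0.21 with TAM on the log2 scale, and then 10 of the 10 genes were called higher with Rg3 and 7 of the 10, FADS2 being the added one, lower with TAM. That scaling also moved the calls over all genes. With Rg3, 5180 of the 16487 genes were then higher, against 4071 before. With TAM, 5259 of the 16079 were lower, against 3812 before. Correction for the trends with GC content and transcript length left 7 of the 10 genes called upward for Rg3 and 5 downward for TAM. The shares of genes with a GC value were then 8.28% higher with Rg3 and 15.6% lower with TAM.

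**Figure D1:**
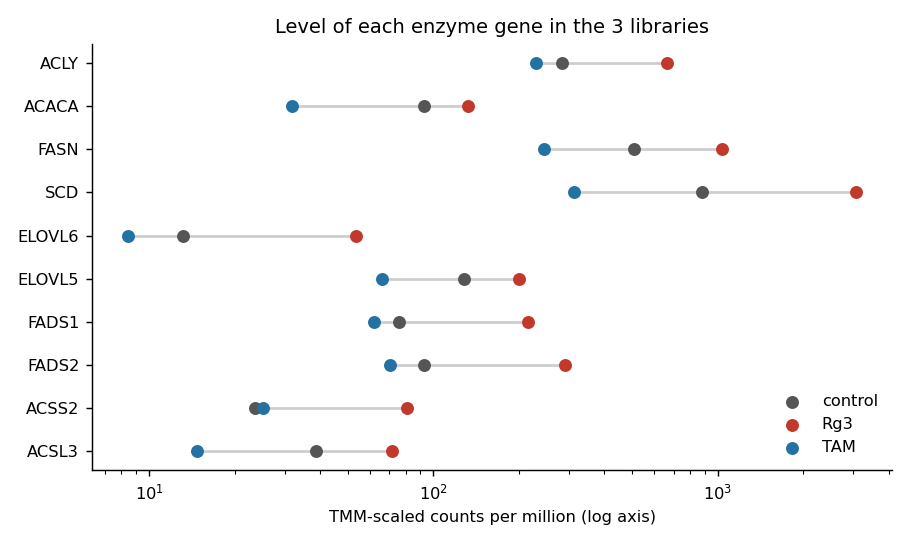
TMM-scaled CPM (x axis, logarithmic) of the 10 genes (rows) in the control (grey), Rg3 (red) and TAM (blue) libraries, 1 point per library, with a line from the lowest to the highest. The Rg3 point is the highest in every row, and the TAM point is the lowest in every row but that of ACSS2, where control (23.6 CPM) and TAM (25.2 CPM) nearly coincide.

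Promoters of the 10 genes were looked up in RefSeq windows (GRCh38.p14). These run from 250 bases before to 50 bases after a transcript start. The windows cover 9 of the 10 genes, FASN being the other, with 14 windows in all. ACACA, which was not called with Rg3, is among those covered. SREBP-1 is known to act with NF-Y, which binds CCAAT. The letters CCAAT, on either strand, were in 9 of the 14 windows, in ACACA, ACLY, ACSL3, ACSS2, ELOVL5, FADS2 and SCD, and in 34.6% of 35116 windows of all genes. GGGCGG was in 11 of the 14 and in 45% of all windows. The E-box CACGTG was in 1 of the 14, in ELOVL5, and in 7.26% of all. TCACNCCAC, the only form of the sterol element searched for, was in 0 of the 14 and in 1.13% of all. Sites that differ from these letters, or that lie outside the windows, would not have been found. Windows of 1 gene can overlap, and a match of letters describes the window only. Whether these letters go with the differences between libraries was not tested. A window of ACACA, whose log2 fold change with Rg3 was 0.52 and not called, also holds 2 copies of the CCAAT letters and is not printed. The 250 bases before the start are printed for 3 genes whose windows hold 2 copies of the CCAAT letters each and whose log2 fold changes with Rg3 differ, SCD (1.80), ACLY (1.23) and ELOVL5 (0.64), with CCAAT or its complement ATTGG and CACGTG in capitals.
SCD, chr10:100346983-100347232, plus strand: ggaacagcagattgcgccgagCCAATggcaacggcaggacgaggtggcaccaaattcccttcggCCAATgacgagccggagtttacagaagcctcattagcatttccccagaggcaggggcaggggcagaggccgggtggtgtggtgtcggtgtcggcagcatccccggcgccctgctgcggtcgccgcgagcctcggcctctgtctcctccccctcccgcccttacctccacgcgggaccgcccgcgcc
ACLY, chr17:41919023-41919272, minus strand: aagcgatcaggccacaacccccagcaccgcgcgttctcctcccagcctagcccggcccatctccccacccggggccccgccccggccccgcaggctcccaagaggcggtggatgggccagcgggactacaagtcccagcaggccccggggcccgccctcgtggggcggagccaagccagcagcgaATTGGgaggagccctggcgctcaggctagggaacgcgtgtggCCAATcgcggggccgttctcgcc
ELOVL5, chr6:53348951-53349200, minus strand: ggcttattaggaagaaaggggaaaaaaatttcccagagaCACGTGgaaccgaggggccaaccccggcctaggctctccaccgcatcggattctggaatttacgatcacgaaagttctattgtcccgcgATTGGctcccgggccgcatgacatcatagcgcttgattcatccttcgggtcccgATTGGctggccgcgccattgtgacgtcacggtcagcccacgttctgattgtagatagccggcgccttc

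The 2 sources of acetyl-CoA were both higher with Rg3. ACLY (chromosome 17, 41866908 to 41930542, minus strand, GRCh38) had 3250, 9619 and 2277 counts in the control, Rg3 and TAM libraries, or 283, 666 and 229 CPM. Its log2 fold change was 1.23 with Rg3 (95% interval 1.17 to 1.29) and -0.31 with TAM (-0.38 to -0.23), so that it was called only with Rg3. ACSS2, the acetate-activating enzyme (chromosome 20, 34872146 to 34927962, plus strand), had 271, 1172 and 250 counts in the control, Rg3 and TAM libraries, or 23.6, 81.1 and 25.2 CPM. It was 3.43-fold higher with Rg3 (log2 fold change 1.78, 1.59 to 1.98). With TAM its interval spanned 0 (0.09, -0.16 to 0.34), and it was the 1 member with a TAM value above 0. That sign depended on the scaling, since division by library totals gave -0.12 and correction for GC content and length gave -0.14. The count of ACLY per count of ACSS2, which no scaling can move, was 12.0 in control cells (10.6 to 13.6), 8.21 with Rg3 (7.72 to 8.73) and 9.11 with TAM (7.99 to 10.4).

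ACACA and FASN, which carry out the synthesis itself, were both lower with TAM, and FASN alone was called with Rg3. ACACA, the acetyl-CoA carboxylase (chromosome 17, 37084988 to 37406818, minus strand), had 1060, 1919 and 315 counts in the control, Rg3 and TAM libraries, or 92.4, 133 and 31.7 CPM. With Rg3 its log2 fold change of 0.52 (0.41 to 0.63) stayed under the 1.5-fold limit, the only member to do so. With library totals it was 0.67 and past the limit. With TAM it was -1.54 (-1.73 to -1.36), or 2.91-fold lower, and -0.92 when corrected for GC content and length. FASN, the fatty acid synthase (chromosome 17, 82078333 to 82098332, minus strand), had 5808, 14977 and 2429 counts, or 507, 1036 and 245 CPM. It was 2.05-fold higher with Rg3 (log2 fold change 1.03, 0.99 to 1.08) and 2.07-fold lower with TAM (-1.05, -1.12 to -0.98). FASN had 5.48 counts per count of ACACA in control cells (5.13 to 5.86), 7.80 with Rg3 (7.44 to 8.19) and 7.71 with TAM (6.85 to 8.70), so that the uncorrected ratio was higher in both treated libraries and the intervals of those libraries overlapped. Corrected for GC content and length, the log2 fold changes with TAM were nearly equal, -0.90 for FASN and -0.92 for ACACA. With Rg3 the corrected values were 1.76 and 0.43.

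The enzymes that turn palmitate into oleate were called in both treated libraries, upward for Rg3 and downward for TAM. SCD, the stearoyl-CoA desaturase (chromosome 10, 100347124 to 100364834, plus strand), had 10093, 44377 and 3112 counts in the control, Rg3 and TAM libraries, or 880.3, 3071 and 313 CPM. It was 3.49-fold higher with Rg3 (log2 fold change 1.80, 1.77 to 1.83) and 2.81-fold lower with TAM (-1.49, -1.55 to -1.43). Where a minimum of 100 counts in at least 1 of the libraries was set, 33 of 10961 genes exceeded the log2 fold change of SCD with Rg3, and 2.22% of 9998 genes lay below it with TAM. ELOVL6, the elongase of palmitate (chromosome 4, 110045846 to 110199199, minus strand), had 151, 772 and 84 counts, or 13.2, 53.4 and 8.46 CPM. It was 4.06-fold higher with Rg3 (log2 fold change 2.02, 1.77 to 2.28), and 20 of the 10961 genes exceeded it, while its value corrected for GC content and length was 1.42. With TAM it was -0.64 (-1.04 to -0.24), just past the limit, and corrected for GC content and length it was 0.01, so that the call was lost. Of the 50-base stretches of SCD, 4.42% recur in another annotated gene, AC126365.1, and for ELOVL6 the share was 0.56%.

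All 3 genes of the polyunsaturated branch were called higher with Rg3, ELOVL5 only without correction for GC content and length, and of them only ELOVL5 was called with TAM, where it was lower. FADS2, the delta-6 desaturase (chromosome 11, 61792980 to 61867354, plus strand), had 1061, 4195 and 701 counts in the control, Rg3 and TAM libraries, or 92.5, 290.3 and 70.6 CPM. FADS1, the delta-5 desaturase (chromosome 11, 61799625 to 61829318, minus strand), had 869, 3113 and 615 counts, or 75.8, 215 and 61.9 CPM. With Rg3 the log2 fold changes were 1.65 for FADS2 (1.55 to 1.75) and 1.51 for FADS1 (1.40 to 1.62). With TAM they were -0.39 (-0.53 to -0.25) and -0.29 (-0.44 to -0.14), under the fold limit. The count of FADS2 per count of FADS1 was 1.22 in control cells (1.12 to 1.34), 1.35 with Rg3 (1.29 to 1.41) and 1.14 with TAM (1.02 to 1.27). The annotated exons of these neighbouring genes overlap on opposite strands, so that reads there cannot be told apart if strand was not used in counting. Exons of FADS2 also overlap FEN1 on the same strand, where strand does not separate the reads. ELOVL5, the elongase between the 2 desaturase steps (chromosome 6, 53267398 to 53349179, minus strand), had 1475, 2888 and 653 counts, or 129, 199.8 and 65.8 CPM. Its log2 fold change was 0.64 with Rg3 (0.54 to 0.73), just past the limit, and -0.97 with TAM (-1.10 to -0.83). Corrected for GC content and length, the value with Rg3 was 0.07 and the call was lost.

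ACSL3, a long-chain acyl-CoA synthetase of the endoplasmic reticulum and lipid droplets (chromosome 2, 222860934 to 222944639, plus strand), had 443, 1033 and 146 counts in the control, Rg3 and TAM libraries, or 38.6, 71.5 and 14.7 CPM. Its log2 fold change was 0.89 with Rg3 (0.73 to 1.05) and -1.39 with TAM (-1.67 to -1.12). Corrected for GC content and length, these were 0.10, no longer called, and -0.72. Exons of ACSL3 overlap AC013476.1 and those of ACLY overlap AC125257.2 on the opposite strand.

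Set directly against each other, at doses that differ (200 and 50 μM), the treated libraries differed in each of the 10 genes, all higher with Rg3 than with TAM. Of 16493 genes compared, 34.9% were called higher in the Rg3 library and 30.4% lower. The log2 fold changes ran from 1.54 for ACLY (1.47 to 1.60) to 3.29 for SCD (3.24 to 3.35), with a median of 2.05 (4.15-fold). SCD was 9.80-fold higher with Rg3 than with TAM, ELOVL6 6.32-fold, ACSL3 4.86-fold and FASN 4.24-fold. Division by library totals, DESeq2 size factors and correction for GC content and length each left all 10 genes called higher, where 18.3% of genes with a GC value were higher and 20.6% lower after the correction. Of the 16493 genes, 7466 were higher and 3140 lower with library totals, and 5645 and 5117 with DESeq2 size factors.

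**Figure D2:**
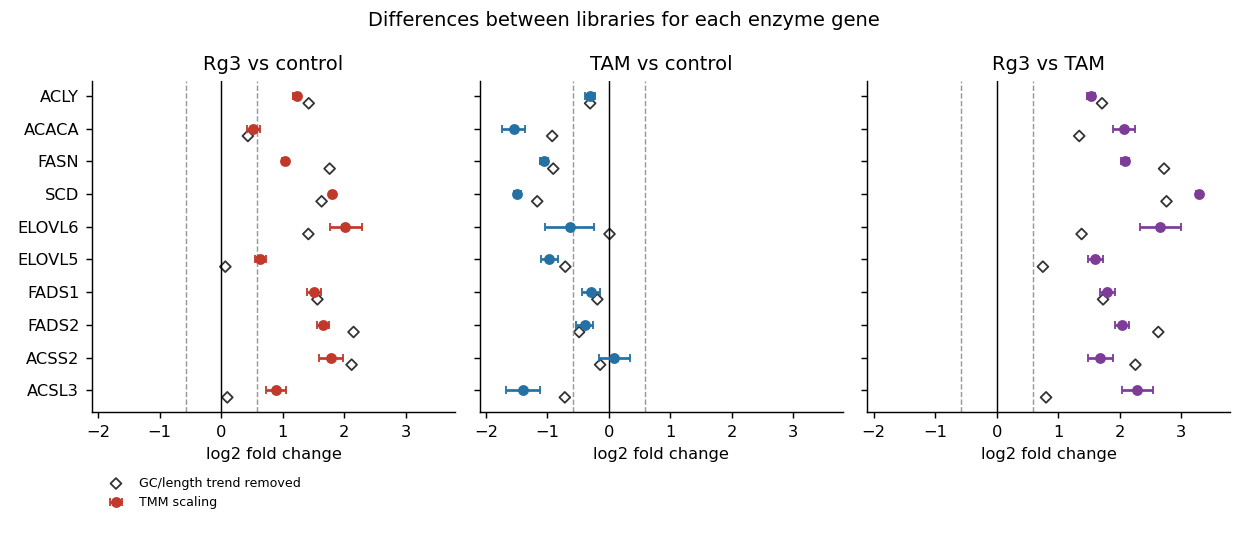
Log2 fold changes (x axis) of the 10 genes (rows) for Rg3 against control, TAM against control and Rg3 against TAM, with bars for the exact 95% counting interval, dashed lines at the fold limits of 1.5 and 0.67, and open diamonds for the value corrected for the trends with GC content and length. With Rg3 the diamonds of ELOVL5 and ACSL3 lie inside the limits, at 0.07 and 0.10, and with TAM that of ELOVL6 lies at 0.01.

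The 10 genes together took 0.217% of all counted reads in control cells (exact 95% interval 0.214 to 0.219), 0.654% with Rg3 (0.649 to 0.658) and 0.0935% with TAM (0.0917 to 0.0953). Without SCD, the most abundant of them, these shares were 0.127%, 0.309% and 0.0660%. The make-up of these reads, which does not depend on scaling, also differed. SCD made up 41.2% of them in control cells (40.6 to 41.8), 52.8% with Rg3 (52.5 to 53.1) and 29.4% with TAM (28.5 to 30.3). ACLY made up 13.3%, 11.4% and 21.5%, and FASN made up 23.7%, 17.8% and 23.0%. SCD had 1.74 counts per count of FASN in control cells (1.68 to 1.80), 2.96 with Rg3 (2.91 to 3.02) and 1.28 with TAM (1.21 to 1.35), and these counting intervals did not overlap. Such ratios are not corrected for GC content and length. After that correction the log2 fold change with Rg3 was 1.63 for SCD and 1.76 for FASN, so that SCD no longer exceeded FASN. With TAM the corrected values were -1.17 and -0.90. ELOVL6 had 0.102 counts per count of ELOVL5 in control cells (0.0860 to 0.121), 0.267 with Rg3 (0.247 to 0.290) and 0.129 with TAM (0.101 to 0.162), where the interval with TAM overlapped that of the control library.

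**Figure D3:**
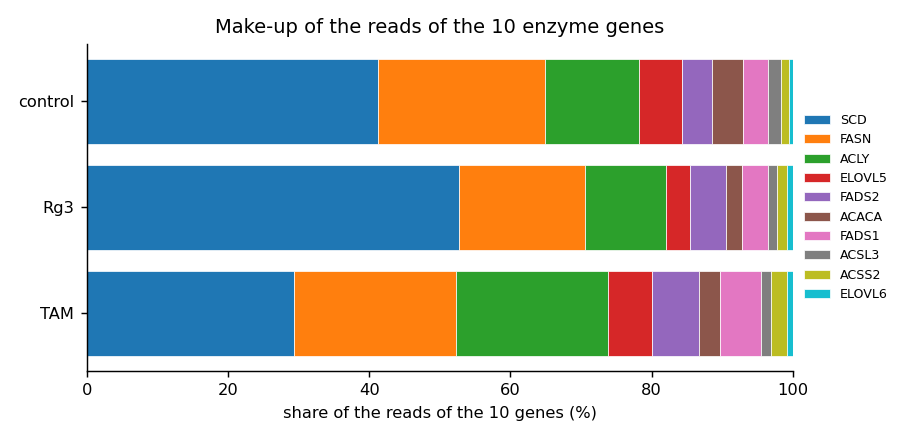
Share (x axis, percent) of each gene in the reads counted on the 10 genes, for the control, Rg3 and TAM libraries (1 stacked bar each). The SCD segment is widest with Rg3 (52.8%) and narrowest with TAM (29.4%), where the ACLY segment is widest (21.5%).

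Between genes, levels were compared only per length, as CPM per kilobase of the longest annotated transcript. SCD led in each library, at 164 CPM per kilobase in control cells, 573 with Rg3 and 58.4 with TAM. ACLY followed at 65.3, 153 and 52.8, then FASN at 59.1, 121 and 28.6, and ELOVL6 was the lowest at 2.04, 8.28 and 1.31. With TAM, the intervals of SCD (56.4 to 60.5) and ACLY (50.7 to 55.1) did not overlap. The counting intervals of neighbours overlapped for FADS2 and FADS1 and for ACSS2 and ACSL3 in the control library, for ACACA and ACSL3 with Rg3, and for FADS2 and FADS1 and for ACACA and ACSL3 with TAM. The order rests on the length used. With the longest transcript annotated as protein coding, a length added after the values were seen, 10, 8 and 10 genes kept their places in the control, Rg3 and TAM libraries, and with the median length of coding transcripts, which is 0.36 kilobases for FASN, 2, 1 and 1 did.

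Log2 fold changes in these libraries varied with the base composition of the transcript. Across genes with at least 50 counts, Spearman's rho with GC content was -0.81 with Rg3 (11583 genes) and 0.51 with TAM (11022 genes), and rho with length was 0.20 and -0.45. Genes are not independent replicates, and these values describe the libraries. The 10 genes span a wide range of GC content, from 38.1% in ACSL3 to 65.3% in FASN, and they stood off the trend to different degrees. FASN had a trend value of -0.73 with Rg3 against a measured 1.03, so that its value with the trend removed was 1.76. FADS2 (58.6% GC) went from 1.65 to 2.15 and ACSS2 (54.6%) from 1.78 to 2.12. ACSL3 had a trend value of 0.79 and ELOVL5 (41.7%) of 0.57, leaving 0.10 and 0.07, and these 2 genes were no longer called. With the trend removed, 7 of the 10 genes were higher with Rg3, where 8.28% of genes with a GC value were higher and 10.6% lower. With TAM, 5 of the 10 were lower, where 15.6% of genes were lower and 13.8% higher: SCD (-1.17), ACACA (-0.92), FASN (-0.90), ACSL3 (-0.72) and ELOVL5 (-0.71). ACACA, at 9961 bases the longest transcript of the 10, had a trend value of -0.62 with TAM. The part of base composition and length in these differences was not tested beyond these values.

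**Figure D4:**
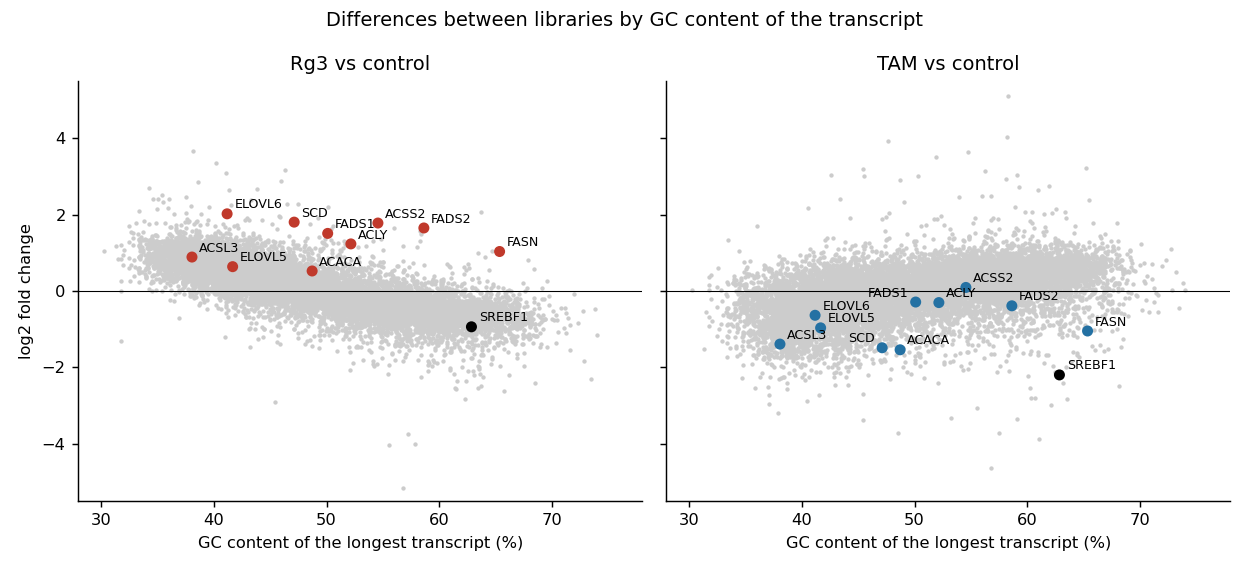
Log2 fold change (y axis) against the GC content of the longest transcript in percent (x axis) for Rg3 against control and TAM against control. Grey points are genes that reach 50 counts in at least 1 of the libraries compared, coloured points the 10 enzyme genes, and black points SREBF1. With Rg3, FASN, FADS2 and ACSS2 lie above genes of like GC content while ACSL3 and ELOVL5 lie within them, and with TAM SREBF1 (-2.20) and FASN (-1.05) lie below genes of like GC content.

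SREBF1, which encodes SREBP-1, had 3722, 2444 and 701 counts in the control, Rg3 and TAM libraries, or 325, 169 and 70.6 CPM, and was called lower in both treated libraries. Its log2 fold change was -0.94 with Rg3 (-1.02 to -0.87) and -2.20 with TAM (-2.32 to -2.08), or 4.60-fold lower. With the trend removed these were -0.28, no longer called, and -2.41. Its count against those of the enzymes differed between libraries: SCD had 2.71 counts per count of SREBF1 in control cells (2.61 to 2.82), 18.2 with Rg3 (17.4 to 18.9) and 4.44 with TAM (4.09 to 4.83). The counts do not separate the SREBP-1a and SREBP-1c transcripts, and exons of SREBF1 overlap RAI1 on the opposite strand. SREBF2, which encodes the factor of the sterol genes, had 1941, 3296 and 1417 counts and log2 fold changes of 0.43 (0.35 to 0.51) and -0.25 (-0.35 to -0.15), within the limits in both.

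INSIG1, which holds SREBP in the endoplasmic reticulum and is itself a target gene of SREBP, had 355, 3291 and 244 counts. It was 7.35-fold higher with Rg3 (log2 fold change 2.88, 2.72 to 3.04), a larger fold than any of the 10 enzymes, and -0.33 with TAM (-0.58 to -0.09). INSIG2, its relative, had 66, 205 and 57 counts, with 1.30 with Rg3 (0.89 to 1.72) and an interval across 0 with TAM (-0.54 to 0.53). SCAP, the sterol-sensing escort, was -0.46 with Rg3 and 0.34 with TAM. The proteases that release SREBP were -0.20 and -0.42 for MBTPS1 and 0.49 and -1.12 for MBTPS2. In all, 2 of the 7 genes (28.6%) were called higher and 1 (14.3%) lower with Rg3, and 0 and 2 (28.6%) with TAM. All genes compared gave 24.7% higher and 19.8% lower with Rg3, and 17.5% and 23.7% with TAM. The median log2 fold changes of the 7 genes were 0.43 and -0.33. Corrected for GC content and length, INSIG2 (0.40) was no longer called with Rg3, nor MBTPS2 (-0.52) with TAM, and SREBF2 (0.86) was past the upper limit with Rg3.

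Of 12 relatives in elongation and desaturation, 10 were compared with Rg3, of which 4 were called higher and 1 lower. The shares over all genes compared were 24.7% higher and 19.8% lower with Rg3, and 17.5% and 23.7% with TAM. HSD17B12, the ketoreductase of the elongation cycle, went from 344 to 2019 counts with Rg3 (log2 fold change 2.22, 2.05 to 2.39) and had 283 with TAM (-0.07, -0.31 to 0.16). TECR, the last enzyme of that cycle, was lower with Rg3 (-0.66), and ELOVL2 was higher with both agents (0.69 and 0.65), of which the value with Rg3 was -0.02 and no longer called when corrected for GC content and length. With TAM, 2 of the 9 relatives compared were higher, ELOVL1 (0.69) and ELOVL2, and HACD2, a dehydratase of the cycle that the naming rule left out, was lower with 17 counts against 94, while HACD3 (-0.36) stayed within the limits. Corrected for GC content and length, ELOVL1 was 0.33 with TAM and no longer called. HSD17B12 has exons that overlap other annotated genes on both strands.

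Of 12 genes of acetyl-CoA, acyl-CoA and NADPH supply, 8 were compared in each treated library. Among all genes compared, 24.7% were called higher and 19.8% lower with Rg3, and 17.5% and 23.7% with TAM. With Rg3, 3 were called higher: ME1 (1.86, from 90 to 411 counts) and IDH1 (1.85, from 602 to 2739), which make NADPH, and ACSL4 (1.81, from 522 to 2309), an acyl-CoA synthetase with a preference for arachidonate. ACSS1, the mitochondrial acetyl-CoA synthetase, was lower (-0.86), and SLC25A1, the citrate carrier, had 0.09 (-0.02 to 0.19). Corrected for GC content and length, SLC25A1 was 0.78 with Rg3, past the upper limit. With TAM, 3 of the 8 were lower and 0 higher: ACSL1 (4.01-fold lower), ACACB (-1.39) and ACSL4 (-1.38). ACSL5 and ACSL6, further long-chain acyl-CoA synthetases, had at most 4 counts in each library.

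Of 10 genes of glycerolipid synthesis, 3 were higher and 4 lower with Rg3, and 1 was higher and 4 lower with TAM. Beside these, 24.7% of all genes compared were higher and 19.8% lower with Rg3, and 17.5% and 23.7% with TAM. LPIN1, a phosphatidate phosphatase, was called higher with Rg3 and lower with TAM, with 205, 1246 and 58 counts in the control, Rg3 and TAM libraries and log2 fold changes of 2.27 (2.06 to 2.49) and -1.61 (-2.06 to -1.19). GPAM, the first acyltransferase of the pathway, had 0.96 and -1.46. LPIN2 was lower with TAM (-1.01), AGPAT2 was lower with Rg3 (-0.99), and PCYT2, of phosphatidylethanolamine synthesis, was higher with both agents (1.03 and 0.69). Corrected for GC content and length, GPAM (0.35) and AGPAT2 (-0.29) were no longer called with Rg3, nor PCYT2 (0.52) with TAM. With the trend on base composition and length taken out, calls with Rg3 were 2 higher and 1 lower among the relatives, 4 and 1 in the supply list and 2 and 0 in glycerolipid synthesis, and calls with TAM were 1 and 1, 0 and 3, and 0 and 4. Of genes with a GC value, 8.28% were then higher and 10.6% lower with Rg3, and 13.8% and 15.6% with TAM.

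The sterol synthesis enzymes, the other arm of SREBP-driven transcription, were counted in the same way. With Rg3, 17 of 19 sterol genes were called higher and their median log2 fold change was 1.64, beside 9 of 10 and 1.37 for the fatty acid enzymes. With TAM, 5 of 19 were higher and 1 lower, with a median of 0.23, beside 0 of 10, 6 of 10 and -0.80. All genes compared gave 24.7% higher and 19.8% lower with Rg3, and 17.5% and 23.7% with TAM. After the same correction, 18 of 19 were higher with Rg3, and 1 was higher and 0 lower with TAM. The shares of genes with a GC value were then 8.28% higher and 10.6% lower with Rg3, and 13.8% and 15.6% with TAM. The difference between the lists was not tested, since genes are not replicates of a condition.

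**Figure D5:**
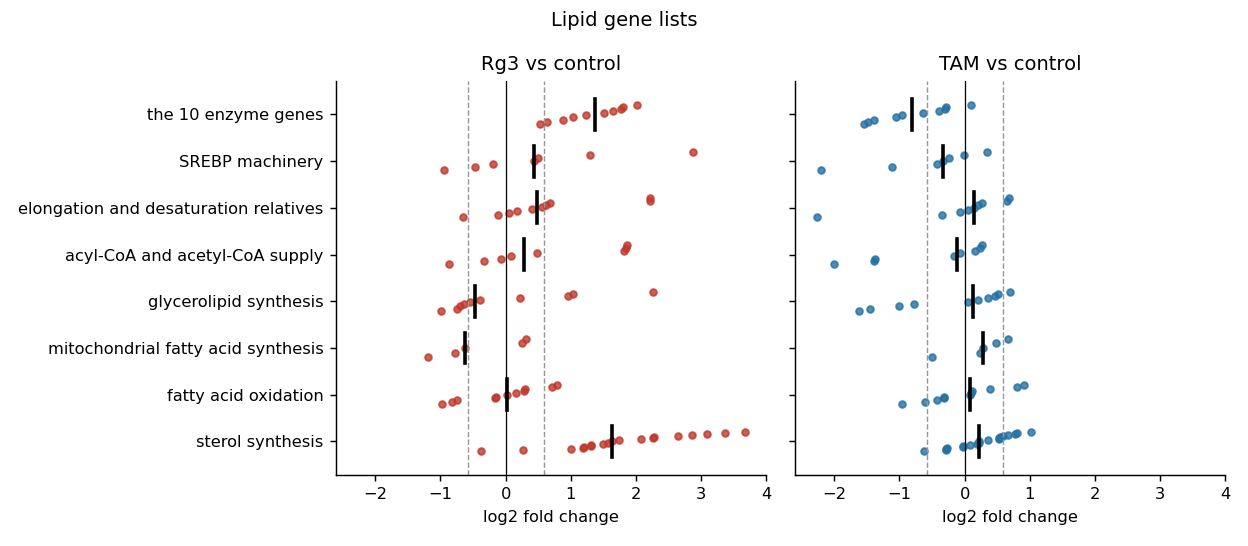
Log2 fold changes (x axis) of the compared genes of each lipid list (rows, 1 point per gene, black bar at the median) for Rg3 against control and TAM against control, with dashed lines at the fold limits. With Rg3 the medians of the 10 enzyme genes (1.37) and of sterol synthesis (1.64) lie past the upper limit and that of mitochondrial fatty acid synthesis (-0.62) past the lower, and with TAM the median of the 10 enzyme genes (-0.80) is the only one past the lower limit.

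The genes whose pair of log2 fold changes lay nearest to the medians of the 10 enzymes (1.37 with Rg3, -0.80 with TAM) were DHX29, MAPK6, ZWILCH, NCBP1 and CGGBP1, at Euclidean distances of 0.07 to 0.17, out of 8416 other genes with at least 100 counts in each library. The measure rests on 3 libraries and on log2 fold changes that were not corrected for GC content and length. Whether these genes share a response with the 10 enzymes was not tested.

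The spread between cultures of a condition was not measured. If a coefficient of variation of 0.2 between cultures is assumed, the exact test of edgeR gave an adjusted p under 0.05 beside the fold limit for 5 of the 10 genes with Rg3 (SCD, ELOVL6, FADS1, FADS2 and ACSS2), for 2 with TAM (ACACA and SCD) and for all 10 between Rg3 and TAM. Of all genes compared, 62 of 16487 passed upward and 94 downward with Rg3, and 110 and 364 of 16079 with TAM. Between Rg3 and TAM, 2908 of 16493 genes passed upward and 2173 downward. If 0.4 is assumed, it did so for 0 of the 10 in each comparison.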

How the data were processed

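Libraries of PANC-1 cells were grouped by the agent in their labels into control, Rg3 and TAM, 1 library each. The authors sequenced total RNA on an Ion Proton and used TopHat for alignment, and the deposited values are unscaled read counts for each gene symbol. GRCh38 is named in the submitters' processing notes. The annotation, the counting tool and the use of strand are not given in the sources used here.

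From the deposited counts, TMM factors (1.01, 1.12 and 0.877 for control, Rg3 and TAM) were taken with edgeR 4.0.16 in R 4.3.3 over genes with at least 10 counts in any library. Log2 fold changes were computed in Python 3.11.15 for genes that reached 10 counts in at least 1 of the libraries compared, with counts under 3 raised to 3, and a count of 0 allows up to 3 counts. The 95% intervals are exact (Clopper-Pearson) and cover counting error only. The Limma test of the methods needs replicates and could not be fitted. Lengths, GC content, positions and shared 50-base stretches come from GENCODE 29 (GRCh38). Lengths and GC content were found for 86.6% of the genes compared with Rg3, 87.2% with TAM and each of the 10 members.

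The members and lists were chosen with earlier results of these data known. Named genes were the members, the SREBP machinery, from each other list the 3 genes with the largest differences in each treated library among those with at least 100 counts, and the 5 genes nearest to the members' medians. Others of a list were named where a count of calls turned on them, after their values were seen, as were the gene pairs whose ratios are given. Alternatives were other scalings (library totals, DESeq2 1.42.0 size factors), count minimums of 1 and 50, a fold of 2 or 0.5, the exact binomial test on reads with Benjamini-Hochberg adjustment, edgeR's exact test with an assumed coefficient of variation, and subtraction of a loess trend (span 0.3) with GC content and length. The steps were tested on simulated data.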

Additional observations from a re-analysis of the deposited data

How the results depend on the processing

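No paired analysis was possible because there is 1 library per condition, and no replicate could be left out. Medians over members kept their sign under each scaling and under the correction for GC content and length. DESeq2 size factors, a minimum of 1 count and the added binomial test moved no count of calls by over 1.5 times. With library totals, the member medians were 1.52 with Rg3, -1.01 with TAM and 2.41 for Rg3 against TAM, 1576 genes were called higher with TAM and 3140 lower for Rg3 against TAM (splits of 5180 higher and 2321 lower with Rg3, 1576 and 5259 with TAM and 7466 and 3140, against 4071 and 3270, 2819 and 3812 and 5762 and 5019 with TMM), and ACSS2 with TAM turned to -0.12, through the shift of the scaling itself (0.15, -0.21 and 0.36 in all genes). Corrected for GC content and length, over fewer genes, the medians were 1.49, -0.60 and 1.72, and ELOVL6 (0.010) and ACSS2 (-0.14) turned sign with TAM. Calls over all genes were then 1183 higher and 1511 lower with Rg3, 2181 lower with TAM, and 2613 higher and 2938 lower for Rg3 against TAM. A minimum of 50 counts, which tests fewer genes, left 2178 lower with Rg3 and 2521 lower with TAM. The 2-fold limit left 1447 higher and 1167 lower with Rg3, 864 and 1820 with TAM, and 2829 lower for Rg3 against TAM, and it left 7 members higher with Rg3 and 4 lower with TAM. With an assumed variation of 0.2, 5 members passed upward for Rg3 and 2 downward for TAM, beside 62 genes higher and 94 lower with Rg3, 110 and 364 with TAM, and 2908 and 2173 for Rg3 against TAM. With 0.4, 0 members were called in each comparison, beside 0 genes higher and 1 lower with Rg3, 0 and 1 with TAM, and 0 and 0 for Rg3 against TAM. The order of levels per length changed with the median length of coding transcripts, as given above.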

Other observations

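Of 11 genes of fatty acid oxidation, 2 were called higher and 3 lower with Rg3, with a median log2 fold change of 0.03, and 2 were higher and 2 lower with TAM, with a median of 0.08. Over all genes compared, 24.7% were higher and 19.8% lower with Rg3, and 17.5% and 23.7% with TAM. Corrected for GC content and length, 0 of the 11 were higher and 2 lower with Rg3, and 1 was higher and 1 lower with TAM. Genes with a GC value were then called higher at 8.28% and lower at 10.6% with Rg3, and at 13.8% and 15.6% with TAM. ACADM, the medium-chain acyl-CoA dehydrogenase, had 333, 722 and 148 counts in the control, Rg3 and TAM libraries and log2 fold changes of 0.78 (0.59 to 0.97) and -0.96 (-1.25 to -0.68). ACADVL, which handles very long chains, had 5719, 4321 and 8686 counts and was lower with Rg3 (-0.74) and higher with TAM (0.81). ETFB, a subunit of the electron carrier of these dehydrogenases, went the same way as ACADVL (-0.82 and 0.90), and ACADS, the short-chain enzyme, was -0.98 with Rg3. CPT1A, the carnitine acyltransferase of the outer mitochondrial membrane, was -0.17 with Rg3 and -0.61 with TAM, past the lower limit. After the correction ACADM (0.18), ACADVL (-0.22) and ACADS (-0.31) were within the limits with Rg3, as were ACADVL (0.42) and CPT1A (-0.45) with TAM.

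The mitochondrial fatty acid synthesis pathway, a separate set of enzymes from the cytosolic FASN, has 6 listed genes, of which 5 were compared. Among all genes compared, 24.7% were higher and 19.8% lower with Rg3, and 17.5% and 23.7% with TAM. With Rg3, 0 were higher and 3 lower: HSD17B8 (-1.20, from 198 to 109 counts), MECR (-0.77) and MCAT (-0.62). Corrected for GC content and length, HSD17B8 and CBR4 were lower with Rg3, at -0.73 and -0.61, while MECR (-0.45) and MCAT (-0.06) were within the limits. Uncorrected, CBR4 was 0.32 (-0.04 to 0.69), from 105 to 165 counts, so that the correction turned its sign. Of genes with a GC value, 8.28% were higher and 10.6% lower with Rg3 after the correction, and 13.8% and 15.6% with TAM. With TAM, 1 of the 5 was higher, HSD17B8 (0.67), MCAT was 0.49 and CBR4 -0.51, and after the correction HSD17B8 was 0.27 and 0 of the 5 were called.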
